A study of Homo sapiens with 12 samples.

Results

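The genes described here are 10 negative-feedback and early-output genes of the RAS, RAF, MEK and ERK cascade, the mitogen-activated protein kinase (MAPK) pathway: DUSP6, DUSP4, DUSP5, SPRY2, SPRY4, SPRED1, ETV4, ETV5, PHLDA1 and EPHA2. They were picked by symbol, with DUSP6 first because its RNA was strongly higher after teriflunomide, and the 10 symbols matched 10 of the 60649 genes in the count tables. RNA was sequenced from SBC3, an established human small cell lung cancer line, grown as spheroids in 4 groups of 3 libraries each. The groups were control, teriflunomide, lurbinectedin, and teriflunomide with lurbinectedin (the combination). Teriflunomide inhibits DHODH, an enzyme of pyrimidine synthesis, and lurbinectedin binds DNA and blocks transcription. The work as titled concerns synergy of teriflunomide with chemotherapy in this cancer. All groups are the same single cell line, and the labels give no dose, no exposure time and no statement that replicates were separate cultures, so the p-values below measure the spread between these libraries, which may be technical.

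ERK, the last kinase of the cascade, moves to the nucleus and switches on a set of genes whose products act back on the same pathway. The dual-specificity phosphatases DUSP4, DUSP5 and DUSP6 remove the activating phosphates from ERK and related kinases. Sprouty (SPRY2, SPRY4) and SPRED1 proteins restrain signalling between receptor and RAF. ETV4 and ETV5 are ETS transcription factors that carry the signal on to further genes, and transcripts of this whole set are widely read as a measure of pathway output.

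Library totals ran from 23206414 to 33222162 counts, a ratio of 1.43. Values are CPM, read counts scaled to a library size corrected by TMM (a scaling that holds most genes level between libraries). CPM is a share of a library, and in bulk RNA fewer cells and less RNA per cell cannot be told apart. Teriflunomide replicate 3 and combination replicate 2 stood apart, with 22.6% and 24.9% of counts on mitochondrially encoded genes. That share was 6.26% to 7.17% in control, 8.42% and 8.43% in the other teriflunomide libraries, 13.8% to 17.0% with lurbinectedin, and 13.1% and 14.6% in the other combination libraries. Their part in the results was not tested beyond the values given without them. Among neuroendocrine markers of small cell lung cancer, SYP was at 15.99 to 17.5 CPM in control, NEUROD1 at 3.67 to 4.29 and DLL3 at 1.87 to 2.12, whereas INSM1, CHGA and NCAM1 were at or near 0. YAP1, found in a non-neuroendocrine form of the disease, was at 236 to 259 CPM. PTPRC, a leukocyte marker, was at or below 0.0335 CPM in control. The epithelial markers differed, with EPCAM at or below 0.0334 CPM, KRT18 at or below 0.179 and KRT8 at 236 to 252, and the mesenchymal gene COL1A1 was at 259 to 272 CPM.

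DUSP6 spans 5.27 kb on the minus strand of chromosome 12 (89347235 to 89352501) in 4 exon blocks, EPHA2 spans 31.73 kb on the minus strand of chromosome 1 (16124337 to 16156069) in 18, and SPRED1 spans 104.41 kb on the plus strand of chromosome 15 (38252836 to 38357249) in 9. These are GRCh38 positions. RefSeq promoter entries (GRCh38.p14) matched 6 of the 10 members, and the 250 bases upstream of the start of these 3 are printed because EPHA2 had the largest rise and SPRED1 the largest fall after lurbinectedin, and DUSP6 led the choice of the set.
DUSP6 (chr12:89352502-89352751, minus strand): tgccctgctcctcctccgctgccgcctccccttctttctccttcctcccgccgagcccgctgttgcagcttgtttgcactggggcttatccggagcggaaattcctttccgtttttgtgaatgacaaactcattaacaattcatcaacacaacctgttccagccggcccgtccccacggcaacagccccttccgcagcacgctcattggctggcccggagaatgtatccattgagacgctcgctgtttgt
EPHA2 (chr1:16156070-16156319, minus strand): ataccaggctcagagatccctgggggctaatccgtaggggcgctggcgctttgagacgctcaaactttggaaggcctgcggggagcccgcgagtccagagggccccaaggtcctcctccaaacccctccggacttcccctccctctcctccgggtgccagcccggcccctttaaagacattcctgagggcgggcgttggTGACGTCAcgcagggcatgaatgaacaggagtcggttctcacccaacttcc
SPRED1 (chr15:38252586-38252835, plus strand): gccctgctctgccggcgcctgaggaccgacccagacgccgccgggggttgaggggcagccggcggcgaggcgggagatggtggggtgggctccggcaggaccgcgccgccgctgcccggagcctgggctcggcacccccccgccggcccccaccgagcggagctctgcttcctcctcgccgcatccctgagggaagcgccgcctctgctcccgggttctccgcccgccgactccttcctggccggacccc
Capitals mark the motif found. Searched on both strands were TGANTCA (AP-1), TGACGTCA (the cyclic AMP response element, CRE), CCGGAAG (an ETS core) and the CArG box bound by serum response factor. No match of TGANTCA can be a match of TGACGTCA. Over 8 upstream windows of the 6 members (SPRY2 has 3 annotated starts), the single match was TGACGTCA in EPHA2, 51 bases upstream of its start. That motif was in 1.65% of 35116 human windows of the same length, against 6.57% for TGANTCA, 8.52% for CCGGAAG and 1.16% for the CArG box. Base composition of the printed windows differed, with 57.2% G or C in DUSP6, 63.2% in EPHA2 and 78.4% in SPRED1.

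In control spheroids the 10 genes differed widely in level. Per kilobase of exon (RPKM), ETV4 stood highest at 26.7 ± 0.943 (SD, n = 3), then ETV5 at 14.9 ± 0.256, EPHA2 at 11.3 ± 0.685 and SPRED1 at 7.75 ± 0.415. The other 6 lay between 3.65 RPKM for SPRY4 and 1.06 for PHLDA1, with DUSP6 ninth of the 10 at 1.48 ± 0.138. No 2 neighbours in this order overlapped over the control libraries.

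**Figure D1:**
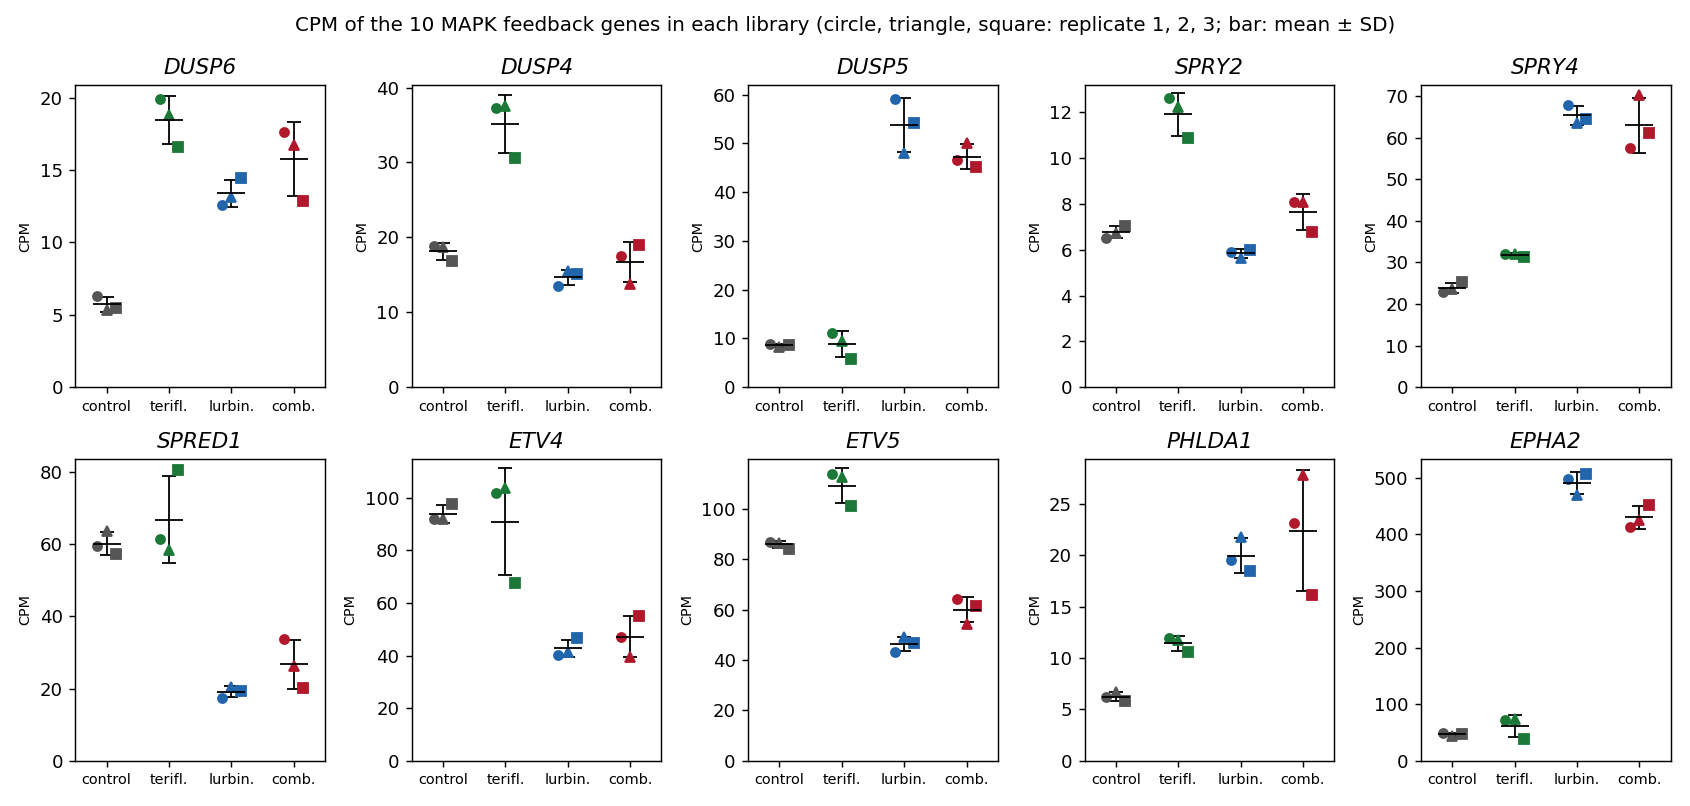
CPM of each member in each of the 12 libraries, 1 panel per gene with its own axis from 0; symbols are replicates 1 to 3 and the black bars are the mean ± SD of a group. DUSP6 is above control in all 3 treated groups, DUSP4 lies at 30.6 to 37.5 CPM with teriflunomide and at 13.5 to 19.0 in the other groups, and EPHA2 sits at 413 to 506 CPM in the 6 libraries with lurbinectedin against 39.4 to 74.2 in the other 6.

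Teriflunomide against control is the comparison that chose these genes, so its values are a description and no test of it is read. DUSP6, which inactivates ERK in the cytoplasm, was at 6.33, 5.35 and 5.50 CPM in the control libraries and at 19.9, 18.8 and 16.6 with teriflunomide. All teriflunomide libraries lay above all control libraries, and the fitted ratio was 3.22. DUSP4, a nuclear phosphatase of the same family, was at 18.9, 18.7 and 16.8 CPM in control and 37.3, 37.5 and 30.6 with teriflunomide, again without overlap. DUSP5, another nuclear phosphatase with ERK as its substrate, was at 8.81, 8.19 and 8.60 CPM in control and 11.1, 9.49 and 5.86 with teriflunomide, so the groups overlapped.

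Both Sprouty genes, inhibitors of receptor-to-RAS signalling, were higher in every teriflunomide library than in any control library. SPRY2 was at 6.53, 6.72 and 7.05 CPM in control and 12.6, 12.2 and 10.9 with teriflunomide, and SPRY4 at 22.9 to 25.2 and 31.3 to 32.1. ETV5 (84.2 to 87.0 and 101 to 114 CPM) and PHLDA1 (5.83 to 6.72 and 10.6 to 11.99) were likewise separated. For SPRED1, ETV4 and EPHA2 the groups overlapped, with teriflunomide replicate 3 apart from the other replicates in each. That library had 39.4 CPM of EPHA2, an ephrin-A receptor tyrosine kinase, where replicates 1 and 2 had 72.5 and 74.2 and control had 43.4 to 48.8. It had 67.5 CPM of ETV4 against 102 and 104, and 80.4 CPM of SPRED1, which brings the RAS inactivator neurofibromin to the membrane, against 61.3 and 58.4. Without that library the log2 difference of EPHA2 from control was 0.65, compared with 0.41 with it.

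By the call rule used throughout (edgeR quasi-likelihood test, Benjamini-Hochberg adjusted p under 0.05 over 16683 genes), 5 of the 10 were called higher and 0 lower in this contrast (DUSP6, DUSP4, SPRY2, SPRY4 and PHLDA1), where 6.01% of all tested genes were called, 3.88% higher and 2.13% lower. Groups did not overlap for 6 members, against 36.8% of all genes. As the contrast chose the set, nothing is read from these counts. The count called was 3 without control replicate 1, 3 without control replicate 3, and 7 without teriflunomide replicate 3. The share of all genes called moved as well, at 1.45%, 1.26% and 9.11% in these fits. SPRY4 was not called in 9 of 14 alternative settings, PHLDA1 in 2 (without control replicate 1 or 3) and DUSP4 in 1 (library size as the only scaling).

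Lurbinectedin alone split the set. Of the 10 members, 5 rose against control (EPHA2, DUSP5, PHLDA1, SPRY4 and DUSP6), 3 fell (SPRED1, ETV4 and ETV5), and DUSP4 and SPRY2 were not called. The background in this comparison was high, with 71.6% of all tested genes called, 36.0% higher and 35.7% lower, so 8 of 10 called is near the background. Groups did not overlap for any of the 10, where 83.2% of all genes did not overlap. The control libraries are those of the contrast that chose the set, and DUSP6 was picked for its rise over them. The call of DUSP6 here is therefore a description, and no test of it is read. The log2 fold changes of the members lay on both sides of 0, with 5 above and 5 below. Their median was 0.51, against 0.05 over all genes tested. That median lies between SPRY2 (-0.21) and DUSP6 (1.23), so it depends on DUSP6 and describes no common rise. The mitochondrial share also moved with the drug, at 13.8% to 17.0% against 6.26% to 7.17% in control, and its part in these changes was not tested.

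Among the 3 member phosphatases, DUSP5 had the largest change. It was at 59.1, 48.1 and 54.2 CPM with lurbinectedin, each far above the control range of 8.19 to 8.81, a 6.30-fold rise (log2 2.65, SE 0.186, edgeR adjusted p = 1.86e-08). DUSP6 reached 12.6, 13.1 and 14.4 CPM, above control and below every teriflunomide library, a fitted ratio of 2.34 (log2 1.23, SE 0.147). DUSP4 was at 13.5, 15.4 and 15.05 CPM, below all control libraries but not called (log2 -0.30, SE 0.139, edgeR adjusted p = 0.0636). That call depended on the setting, since DUSP4 was called lower with library size as the only scaling (log2 -0.54, adjusted p = 0.0437), with DESeq2 size factors in edgeR (-0.33, 0.0490), by DESeq2 (-0.35, 0.0428), from the 2 groups alone (-0.32, 0.000757), and without teriflunomide replicate 3 and combination replicate 2 together (-0.31, 0.00333).

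The Sprouty pair diverged. SPRY4 was at 68.0, 63.6 and 64.6 CPM, well clear of control, 2.73-fold higher (log2 1.45, SE 0.105, edgeR adjusted p = 2.41e-08). SPRY2 was at 5.91, 5.63 and 5.997 CPM, just under the control libraries and not called (log2 -0.21, SE 0.129, edgeR adjusted p = 0.155). With library size as the only scaling it was called lower (log2 -0.44, adjusted p = 0.0332), under which the median of all genes moved from 0.05 to -0.18. SPRED1 dropped from 59.4, 63.6 and 57.3 CPM to 17.5, 20.6 and 19.3, a 3.14-fold fall (log2 -1.65, SE 0.176, edgeR adjusted p = 1.30e-06).

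Both ETS factors fell. ETV4 was at 40.3, 41.2 and 46.5 CPM with lurbinectedin against 91.8 to 97.7 in control (log2 -1.14, SE 0.161, edgeR adjusted p = 2.17e-05). ETV4 overlaps 68 exonic bases of DHX8 on the other strand, and strand use in counting is not given in the sources used here. ETV5 was at 43.3, 49.1 and 46.8 CPM against 84.2 to 87.0 (log2 -0.89, SE 0.09999, edgeR adjusted p = 2.17e-06).

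EPHA2 had the largest change of the 10. It was at 498, 470 and 506 CPM with lurbinectedin, where control had 48.8, 43.4 and 47.7, a 10.5-fold rise (log2 3.40, SE 0.192, edgeR adjusted p = 2.47e-09). PHLDA1, a pleckstrin homology-like domain protein, was at 19.5, 21.8 and 18.5 CPM against 5.83 to 6.72 (log2 1.67, SE 0.176, edgeR adjusted p = 1.15e-06). Per kilobase of exon EPHA2 became the most abundant member, at 119 ± 4.601 RPKM, followed by DUSP5 at 21.2 ± 2.17 and ETV4 at 12.1 ± 0.953. In this order DUSP6 (3.47 RPKM) and PHLDA1 (3.37 RPKM) overlapped over libraries, as did DUSP4 (2.02 RPKM) and SPRY2 (1.82 RPKM), and the remaining neighbours did not.

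**Figure D2:**
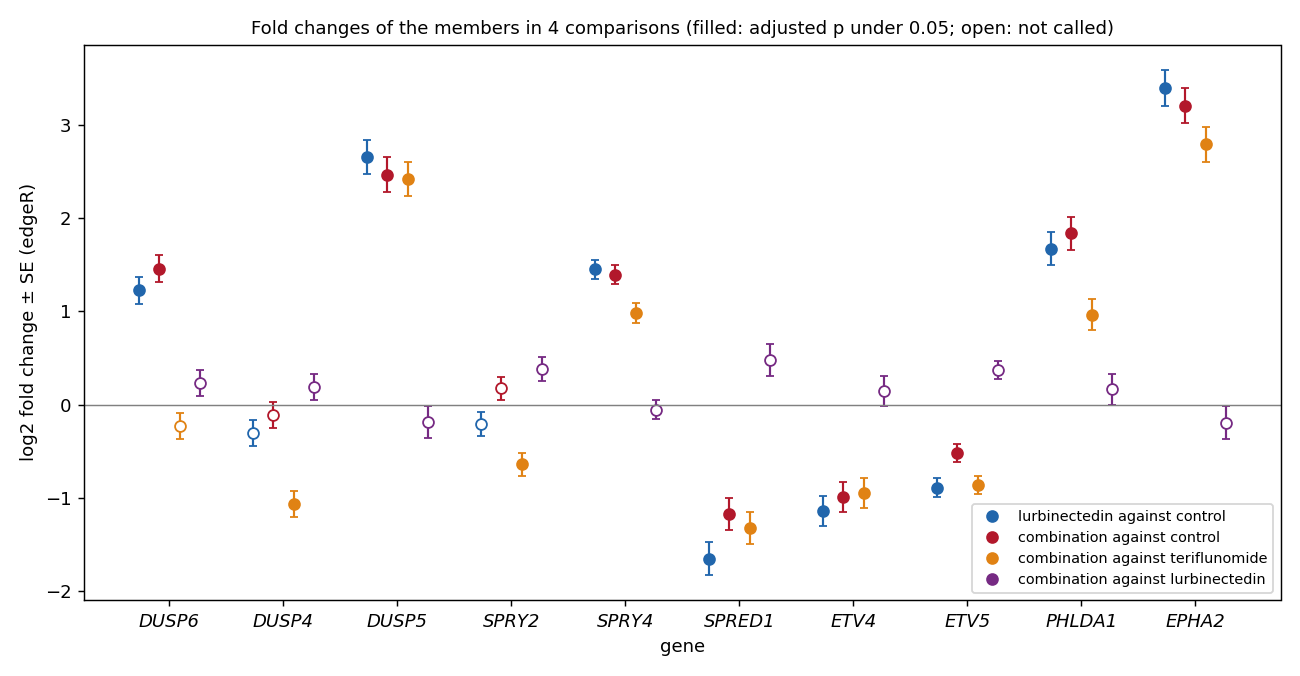
Fitted log2 fold change (vertical axis, ± SE) of each member (horizontal axis) in 4 comparisons, filled where the adjusted p was under 0.05. EPHA2, DUSP5, SPRY4 and PHLDA1 are filled and above 0 in the 3 comparisons that differ in lurbinectedin, SPRED1, ETV4 and ETV5 are filled and below 0 in them, and every open purple point is a member not called between combination and lurbinectedin.

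Among the called members the direction went with gene length. The 5 that rose span 5.27 to 31.73 kb of genome, and the 3 that fell span 51.78 kb (ETV4), 64.0 kb (ETV5) and 104.41 kb (SPRED1). Fold changes of all genes also differed by span: the median log2 fold change with lurbinectedin was 0.70 in the shortest of 5 equal bins of genes by span and -1.86 in the longest. Set beside genes of like span, EPHA2 lay high, with 1.26% of the 3336 genes in its bin (16.2 to 35.8 kb) having a larger fold change. DUSP5 had 5.30% of its bin above it, and in that same bin PHLDA1 had 13.9%, SPRY4 19.5% and DUSP6 25.3%. SPRED1 lay near the middle of the bin of longest genes, where 44.4% of genes had a larger value. ETV4, ETV5, DUSP4 and SPRY2 were low for their length, each under the median of its bin. They had 79.6%, 71.6%, 75.6% and 79.1% of like-span genes above them. These are descriptions, and the part of length in any member's change was not tested.

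**Figure D3:**
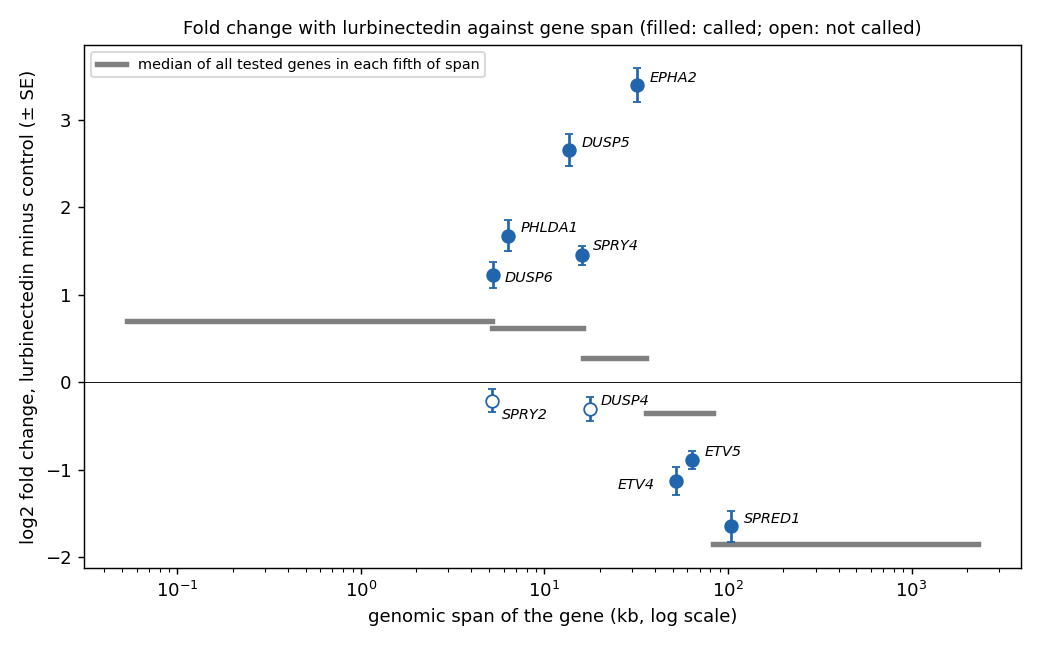
Log2 fold change of each member with lurbinectedin (vertical axis, ± SE) against the genomic span of its gene (log axis, kb); filled points were called, and grey bars are medians of all tested genes in each of 5 bins of span, drawn from the shortest to the longest gene of that bin. Members over 50 kb lie below 0, and ETV4, ETV5, SPRY2 and DUSP4 lie under the bars for genes of their length.

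The combination against control gave the same 8 calls, 5 higher and 3 lower, where 68.4% of all tested genes were called (34.1% higher, 34.4% lower). Groups did not overlap for 8 members, against 77.2% of all genes. It shares its control libraries with the comparison above, so the call of DUSP6 is again a description. DUSP6 was at 17.7, 16.8 and 12.9 CPM, all above control, a fitted ratio of 2.75 (log2 1.46, SE 0.147). EPHA2 was at 413, 425 and 452 CPM (log2 3.21, SE 0.191, edgeR adjusted p = 5.18e-09), and DUSP5 at 46.6, 50.03 and 45.1 (log2 2.47, SE 0.185, edgeR adjusted p = 4.68e-08). SPRY4 and PHLDA1 rose by 1.40 and 1.84 on the log2 scale. PHLDA1 varied most for its mean within the group, at 23.2, 27.9 and 16.1 CPM, of which combination replicate 2 was the highest.

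SPRED1, ETV4 and ETV5 were again lower than in control. SPRED1 was at 33.7, 26.2 and 20.2 CPM, below every control library (log2 -1.17, SE 0.172, edgeR adjusted p = 3.60e-05). ETV4 had a log2 fold change of -0.99 and ETV5 of -0.52. DUSP4 (17.5, 13.7 and 19.0 CPM) and SPRY2 (8.11, 8.09 and 6.76 CPM) overlapped control and were not called (log2 -0.11 and 0.18, edgeR adjusted p = 0.482 and 0.234).

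Against teriflunomide, the combination measures what lurbinectedin added when teriflunomide was present. Here 9 of 10 members were called, 4 higher and 5 lower, where 70.9% of all tested genes were called (35.2% higher, 35.8% lower). Groups did not overlap for 9 members, against 70.7% of all genes. The teriflunomide libraries took part in choosing the set, and DUSP6 was picked for its rise in them. No test of DUSP6 is read in this comparison either. DUSP4 was lower in every combination library than in any teriflunomide library, at 16.7 ± 2.701 CPM against 35.1 ± 3.94 (log2 -1.07, SE 0.138, edgeR adjusted p = 9.50e-06). SPRY2 went the same way, at 7.66 ± 0.772 CPM against 11.9 ± 0.928 (log2 -0.64, SE 0.125, edgeR adjusted p = 0.000377). DUSP4 and SPRY2 were the 2 genes not called between lurbinectedin and control. Their teriflunomide values are those of the contrast that chose the set, in which both lay above control. Their falls from those values are therefore a description, and the difference between these comparisons was not tested.

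SPRED1, ETV4 and ETV5 fell in this comparison too, by 1.32, 0.94 and 0.86 on the log2 scale. EPHA2, DUSP5, SPRY4 and PHLDA1 rose by 2.79, 2.42, 0.98 and 0.97. DUSP6 is given as a description, since no test of it is read here. Its groups overlapped, at 15.8 ± 2.56 CPM in the combination and 18.5 ± 1.68 with teriflunomide (log2 -0.23, SE 0.140). Without teriflunomide replicate 3 its log2 fold change was -0.31. In DUSP6 the order of the groups was teriflunomide, combination, lurbinectedin and control, and neighbours among the 3 treated groups overlapped.

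Setting the combination beside lurbinectedin shows what teriflunomide added to that drug, and this comparison shares no library with the contrast that chose the set. None of the 10 members was called by edgeR, nor any of the 16683 genes (0% of the background). At an unadjusted p under 0.05 there were 3 members, SPRY2, SPRED1 and ETV5, against 15.6% of all genes, and DESeq2 called 1 member, ETV5, where it called 4.21% of the 12813 genes it tested. ETV5 was at 64.1, 54.4 and 61.6 CPM with the combination and 43.3, 49.1 and 46.8 with lurbinectedin, with no overlap (log2 0.37, SE 0.0997, edgeR adjusted p = 0.151, DESeq2 adjusted p = 0.0155). SPRY2 did not overlap either, at 6.76 to 8.11 CPM against 5.63 to 5.997 (log2 0.39, SE 0.129, edgeR adjusted p = 0.205). EPHA2 lay lower in each combination library than in any lurbinectedin library, at 413 to 452 against 470 to 506 CPM (log2 -0.19, SE 0.174, edgeR adjusted p = 0.618). These 3 of 10 members without overlap compare with 23.7% of all genes. Without teriflunomide replicate 3 and combination replicate 2 together, 4 members were called higher (DUSP4, SPRED1, ETV4 and ETV5) where 21.5% of all genes were called. Leaving out any 1 library of these groups called 0 members.

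The teriflunomide difference can be set side by side without and with lurbinectedin, though the difference between them was not tested, since it contains the contrast that chose the set. DUSP6 had log2 values of 1.69 (SE 0.147) without and 0.23 (SE 0.142) with lurbinectedin. For DUSP4 they were 0.96 and 0.19, for PHLDA1 0.87 and 0.16, and for SPRY2 0.82 and 0.39. ETV5 had 0.35 and 0.37. SPRY4 (0.41 and -0.05), EPHA2 (0.41 and -0.19), DUSP5 (0.05 and -0.19) and ETV4 (-0.05 and 0.15) had opposite signs, while SPRED1 had 0.15 and 0.48. The sign of DUSP5 in the first and of SPRY4 in the second comparison changed with library size as the only scaling.

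**Figure D4:**
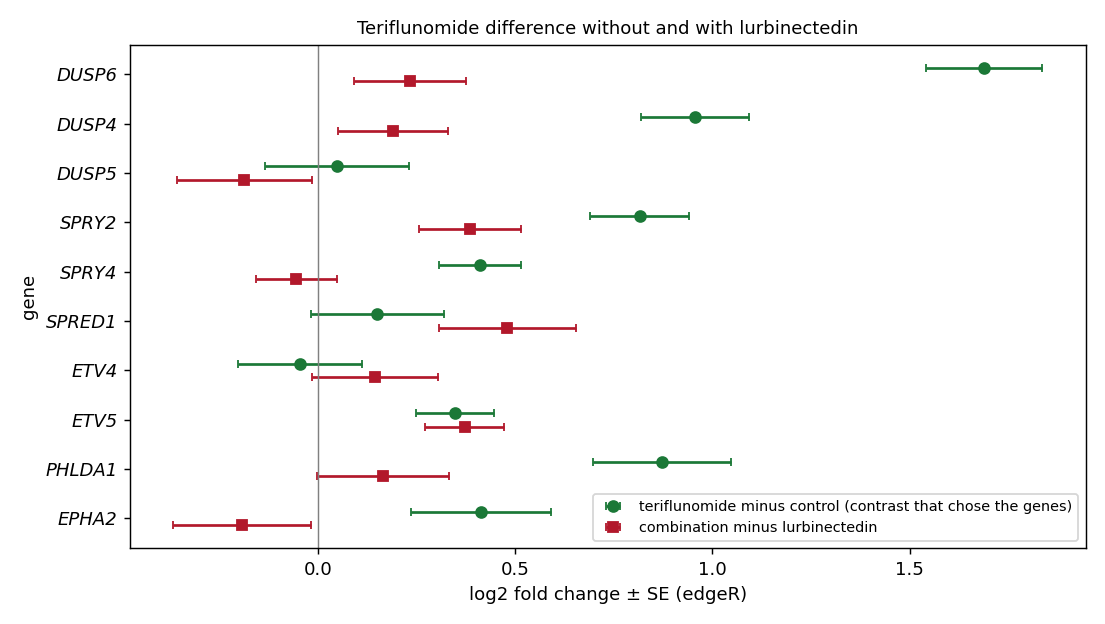
Log2 fold change (horizontal axis, ± SE) of each member with teriflunomide in the absence (circles) and presence (squares) of lurbinectedin. DUSP6 has the widest gap, 1.69 against 0.23, and the ETV5 points lie close together at 0.35 and 0.37.

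The rest of the pathway was read from 7 lists written from general knowledge, but with earlier results of these data known. Each list's counts with lurbinectedin stand against 36.0% of all tested genes called higher and 35.7% lower. Each median log2 fold change stands against 0.05. Direction also differed by gene span over all tested genes. In the bin of shortest genes 51.1% were called higher and 12.4% lower, and in the bin of longest genes 5.84% and 83.6%. The lists were not set beside genes of like span, and the part of length in their counts and medians was not tested. Of 8 other MAPK phosphatases, 5 rose and 2 fell, with a median of 1.28, and 7 of 8 called is near the 71.6% of all genes. DUSP8 went from 2.51 ± 0.293 CPM in control to 44.5 ± 3.64 (log2 4.15, SE 0.154, edgeR adjusted p = 8.60e-11), and DUSP14 from 15.4 ± 0.863 to 89.8 ± 4.19. DUSP9 and DUSP16 fell by 0.58 and 0.46 on the log2 scale. Among relatives of the remaining members, 10 of 12 were tested, of which 5 rose and 5 fell. PHLDA3 and PHLDA2, family members of PHLDA1, rose by 2.91 and 2.43. EPHB2, a receptor of the same family as EPHA2, moved opposite to it, from 45.9 ± 2.64 to 2.60 ± 0.236 CPM (log2 -4.14, SE 0.153, edgeR adjusted p = 8.60e-11). ETV1, the third factor of the ETV4 and ETV5 subfamily, had 64 counts in control and 0 with lurbinectedin, at least 16.9-fold lower against a floor of 3 counts over the group.

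Of the 5 ephrin-A ligands of EPHA2, 1 rose and 1 fell with lurbinectedin, where 71.6% of all genes were called. EFNA1 was at 3.16 ± 0.154 CPM in control and 6.53 ± 0.771 with the drug (log2 1.04), and EFNA5 had 191 and 6 counts, a ratio of 25.2 with a 95% exact counting interval of 11.4 to 69.5 that covers counting error only. Of 12 tested among 15 upstream receptor kinases, 2 rose and 8 fell, with a median of -0.79, where 35.7% of all genes fell. FGFR3 rose from 23.6 ± 1.94 to 59.8 ± 7.43 CPM. EGFR fell from 18.8 ± 0.784 to 2.19 ± 0.112 CPM (log2 -3.10, SE 0.219, edgeR adjusted p = 2.11e-08), and PDGFRA had 36 counts in control and 3 with lurbinectedin, a ratio of 9.49 (2.999 to 48.2).

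Adaptors and RAS regulators had 2 of 12 higher and 9 lower, with a median of -1.57, against 36.0% and 35.7% of all genes. NF1, which encodes neurofibromin, the partner of SPRED1, fell from 235 ± 10.1 to 17.9 ± 2.20 CPM (log2 -3.71, SE 0.212, edgeR adjusted p = 2.72e-09), and RASA2, another RAS inactivator, fell by 3.14 on the log2 scale. The adaptor SHC1 and LZTR1, an adaptor for RAS degradation, rose by 0.94 and 0.93. In the cascade from RAS to ERK, 4 of 13 rose and 7 fell, with a median of -0.45, against the same shares. HRAS rose from 22.7 ± 0.867 to 68.0 ± 7.01 CPM and RPS6KA1, an ERK-activated kinase, by 0.72 on the log2 scale. BRAF fell from 41.0 ± 1.21 to 7.03 ± 0.935 CPM and RPS6KA3 by 1.83 on the log2 scale.

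Of 15 other genes known to respond to ERK, 13 were tested, and 10 rose and 1 fell with lurbinectedin, with a median of 2.83, where 36.0% of all genes rose. The epidermal growth factor receptor ligand HBEGF went from 2.03 ± 0.298 CPM in control to 60.1 ± 3.74 (log2 4.88, SE 0.225, edgeR adjusted p = 4.25e-10), and the cytokine LIF from 0.844 ± 0.246 to 27.6 ± 1.196 (log2 5.02, SE 0.221, edgeR adjusted p = 2.94e-10). TGFA, another ligand of that receptor, fell by 1.51 on the log2 scale. In the combination against control, 34.1% of all tested genes were called higher and 34.4% lower. The counts there were 10 higher and 1 lower of 13 tested in this list, and 2 and 9 of 12 among adaptors. They were 2 and 7 of 12 among receptors, and 4 and 6 of 13 in the cascade. The other phosphatases had 5 and 2 of 8, the relatives 5 and 5 of 10, and the ephrin-A ligands 1 and 1 of 5. None of the 73 tested genes of the 7 lists was called between combination and lurbinectedin. With teriflunomide alone, the contrast that chose the members, 4 of the 73 were called higher (3 ERK-responsive genes and 1 relative) and 3 lower (1 phosphatase, 1 ephrin and 1 adaptor), against 3.88% and 2.13% of all genes, and nothing is read from these counts.

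**Figure D5:**
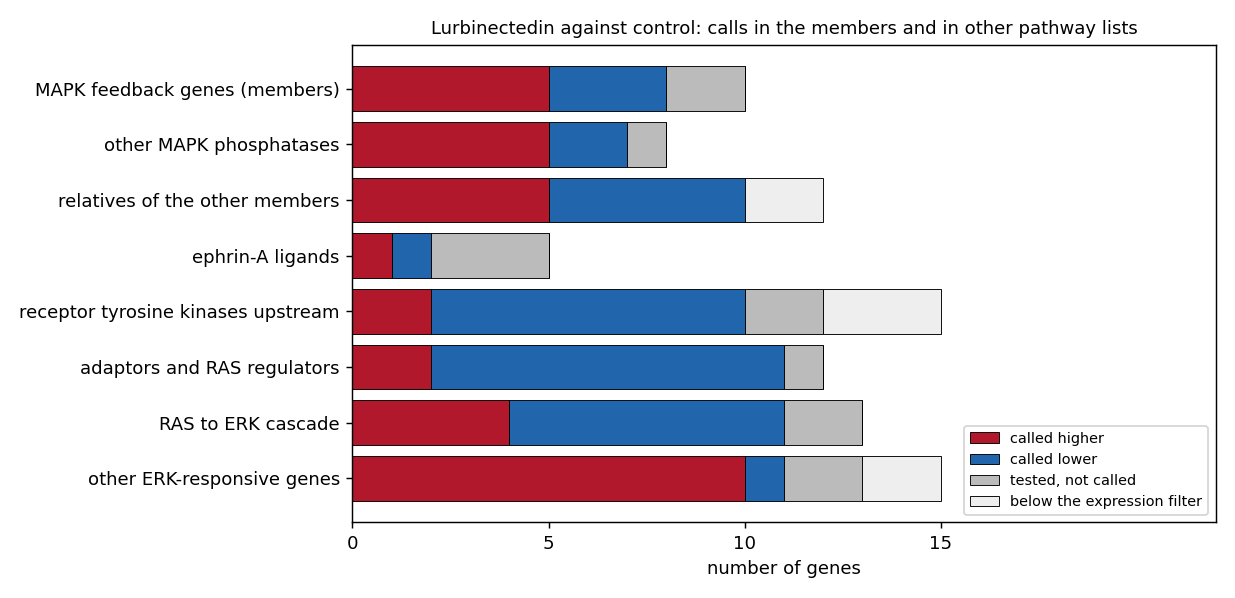
Number of genes (horizontal axis) called higher, called lower, tested and not called, or below the expression filter in lurbinectedin against control, for the members and 7 other pathway lists. The adaptor and receptor lists are mostly lower calls (9 of 12 and 8 of 15), and the ERK-responsive list mostly higher calls (10 of 15).

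The genes whose level most resembled DUSP6 across the 12 libraries, by Pearson correlation of log2 (CPM + 1) among 10435 genes with a mean of at least 5 CPM, were RP2 (r = 0.964), GPCPD1 (0.944), ACTA2 (0.940), PPBP (0.938) and SLC5A3 (0.936). The libraries share 4 groups, so these r values describe group means more than single libraries. ACTA2, smooth muscle actin, was at 13.6 ± 0.998 CPM in control, 29.1 ± 1.67 after teriflunomide, 20.8 ± 1.16 after lurbinectedin and 23.7 ± 2.94 in the combination. Its groups fell in the order of DUSP6, whereas RP2 and GPCPD1, the 2 genes most like DUSP6, were highest in the combination, at 12.03 and 54.97 CPM against 11.7 and 50.1 with teriflunomide. Among the other 9 members, PHLDA1 came closest to DUSP6, at r = 0.722 and place 178 of the ranked genes, and ETV4 was farthest, at -0.368.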

How the data were processed

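Polyadenylated RNA of 12 SBC3 libraries was measured (RNeasy Plus Mini extraction and KAPA mRNA HyperPrep libraries, per the labels' protocols). The deposited values are raw read counts per gene, 1 file per library. Per the submitters' processing notes, fastp 0.23.2, STAR 2.7.9, Subread featureCounts and hg38 were used; annotation release, strand setting and multi-mapping rules are not given in the sources used here. All 37318 gene identifiers shared with GENCODE 29 had identical spans. Symbols matched 60507 of 60649 identifiers (99.8%).

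edgeR 4.0.16 in R 4.3.3 was used, with filterByExpr (16683 genes, all 10 members among them) and TMM. A robust quasi-likelihood fit had 1 mean per group over all 12 libraries. It was run on simulated counts in which few genes changed, evenly up and down, with the same spread for every gene. That simulation held neither the wide changes seen with lurbinectedin nor libraries that stood apart, so it does not check the fit under those conditions. Calls use a Benjamini-Hochberg adjusted p under 0.05 over all tested genes in each of 5 contrasts. SE comes from the F statistic. RPKM divides CPM by exon length. Figures used matplotlib 3.10.9. DESeq2 1.42.0 and other scalings, filters, designs and left-out libraries were alternatives.

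The members, lists and tests were chosen with earlier results of these data known. Named genes are all members, from each list up to 2 largest rises and 2 largest falls called with lurbinectedin, and the 5 genes most like DUSP6; some items under this rule are not reported here. EPCAM, PTPRC, COL1A1 and the other markers were listed in the same way. DUSP6 overlaps an unnamed model of 36 counts on the other strand over 1105 exonic bases; the gene itself has 4612 counts. Replicate numbers did not pair the libraries (closing section).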

Additional observations from a re-analysis of the deposited data

How the results depend on the processing

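Each of the 5 comparisons was recomputed under 14 alternatives. With lurbinectedin or the combination against control, and with the combination against teriflunomide, every called member kept its direction and its call under all of them (112 of 112, 112 of 112 and 126 of 126 values). For teriflunomide against control 58 of 70 such values kept theirs, and the lost calls were SPRY4 in 9 settings, PHLDA1 in 2 and DUSP4 in 1. Counts of called members over fits without 1 library were 8 to 8, 8 to 8 and 9 to 10 in the 3 comparisons with lurbinectedin added, 0 to 0 for the combination against lurbinectedin and 3 to 7 for teriflunomide against control. Of all genes, these fits called 65.1% to 66.2%, 61.8% to 64.6%, 66.9% to 73.2%, 0% to 1.52% and 1.26% to 9.11% in the same order. Other counts moved by over 1.5 times were 3 members for teriflunomide against control when scaled by library size only, and, for the combination against lurbinectedin, 1 with DESeq2 and 4 without teriflunomide replicate 3 and combination replicate 2 together. Members not called that changed sign, given as log2 fold changes, were DUSP5 with teriflunomide (-0.0030, library size only; -0.15 to 0.27 without 1 library), SPRED1 and ETV4 with teriflunomide (-0.0053 and 0.13 without the 2 libraries together; -0.0064 to 0.24 and -0.15 to 0.13 without 1), DUSP4 with the combination against control (0.0028 without the 2 libraries; -0.21 to 0.0037 without 1), and, for the combination against lurbinectedin, SPRY4 (0.0032, library size only; -0.14 to 0.016 without 1) and PHLDA1 (-0.022 without the 2 libraries; -0.020 to 0.35 without 1). The cause of these moves was not tested. Over all genes, teriflunomide against control called 1002, against 265 by library size only, 1800 unfiltered, 415 with the block below, 283 from the groups compared alone, 1817 with DESeq2, 2757 without the 2 libraries and 216 to 1555 without 1. The combination against lurbinectedin called 0, against 612 unfiltered, 94 from the groups compared alone, 539 with DESeq2, 3640 without the 2 libraries and 0 to 259 without 1. With totals alone as the scaling, 39.2% of all genes called with lurbinectedin were higher, where TMM gave 50.2%, and the fit called DUSP4 and SPRY2 lower as well.

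A replicate block, with the replicate number as a term, called 4, 8, 8, 0 and 9 members for teriflunomide, lurbinectedin and the combination against control, and for the combination against lurbinectedin and against teriflunomide. Of all genes the block called 2.49%, 69.5%, 66.2%, 0% and 68.8% in the same order. The numbers did not pair the libraries: deviations of same-numbered libraries correlated at -0.547 to 0.248 over 18 pairs, 4 of them over 0.1, and 2 of 12 libraries correlated best with their own number. The members' SE between combination and lurbinectedin was 0.0997 to 0.174 on the log2 scale.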
